A study of Homo sapiens with 2 samples.

Results

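The genes described here are 10 members of the contractile actin and YAP target programmes, namely ACTC1, ACTA2, TAGLN, TPM1, TPM2, MYL9, CNN1, ANKRD1, CTGF and CYR61. They were taken by symbol from the gene table of the count matrices, 10 of 33538 genes, and each symbol had 1 row. The list was chosen from earlier results of these data, on the higher ACTC1 level in the GATA3 knockout, so the difference between the libraries is given for the members as a description. Single-cell RNA-seq had been carried out on 2 libraries of human embryonic stem cells (hESCs) of the established line H1, both kept on Matrigel in mTeSR1 with 50 ng/ml bone morphogenetic protein 4 (BMP4) for 48 h. The library labelled WT was unmodified H1. The library labelled GATA3 KO was KO-GATA3-06, a single clone from an H1 subline with a doxycycline-inducible Cas9 cassette that had been transfected with CRISPR RNAs against the transcription factor GATA3, so that clone, cassette and genotype cannot be told apart. The protocol text of the WT library names 1 h of BMP4, while its title and recorded duration give 48 h.

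Actin filaments pulled by myosin let a cell hold tension, and muscle and other contractile cells express dedicated forms of the parts. ACTC1 and ACTA2 encode actins best known from heart and smooth muscle, MYL9 a regulatory light chain of myosin, TPM1 and TPM2 tropomyosins that lie along the filament, and TAGLN and CNN1 the actin-binding proteins transgelin and calponin. Many of these genes are targets of serum response factor (SRF), which binds a sequence known as the CArG box. When cells are spread or under tension, the coactivator YAP enters the nucleus and acts with TEAD factors, and CTGF, CYR61 and ANKRD1 are classical targets of that pair. CTGF and CYR61 are secreted matrix-associated proteins and ANKRD1 is a nuclear ankyrin-repeat protein of heart muscle.

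After the limits of the study (at most 7500 detected genes and at most 25% mitochondrial counts per cell), 2519 cells labelled WT and 4450 labelled GATA3 KO were kept, with 99587274 and 175285931 unique molecular identifiers (UMIs). The median cell had 44415 and 43131.5. Levels are given as CPM, the UMIs of a gene divided by all UMIs of the kept cells and scaled to 1e+06. Ratios are log2 of CPM plus 1, GATA3 KO over WT, and intervals are 95% counting intervals. With 1 library per group there was no replicate and no test, so an interval says nothing of the spread between cultures. The targeted transcript does not check the labels, since GATA3 stood at 12.7 and 10.9 CPM.

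All 10 members were higher in GATA3 KO, and the size of the difference ran from slight to more than 3-fold. The median log2 ratio of the 10 was 0.87, against 0.08 for the 9992 genes that reached 5 CPM in either library. Of the 9 members that reached this level, 4 were at least 2-fold higher (ACTC1, MYL9, CNN1 and CYR61) and 0 at least 2-fold lower, where 2.42% and 2.09% of all genes tested were. At 1.5-fold, 5 of the 9 were higher and 0 lower, against 14.3% and 7.82% of genes, and 56.4% of genes were higher by any amount. As the members were chosen with this contrast in view, nothing is read from these shares.

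**Figure D1:**
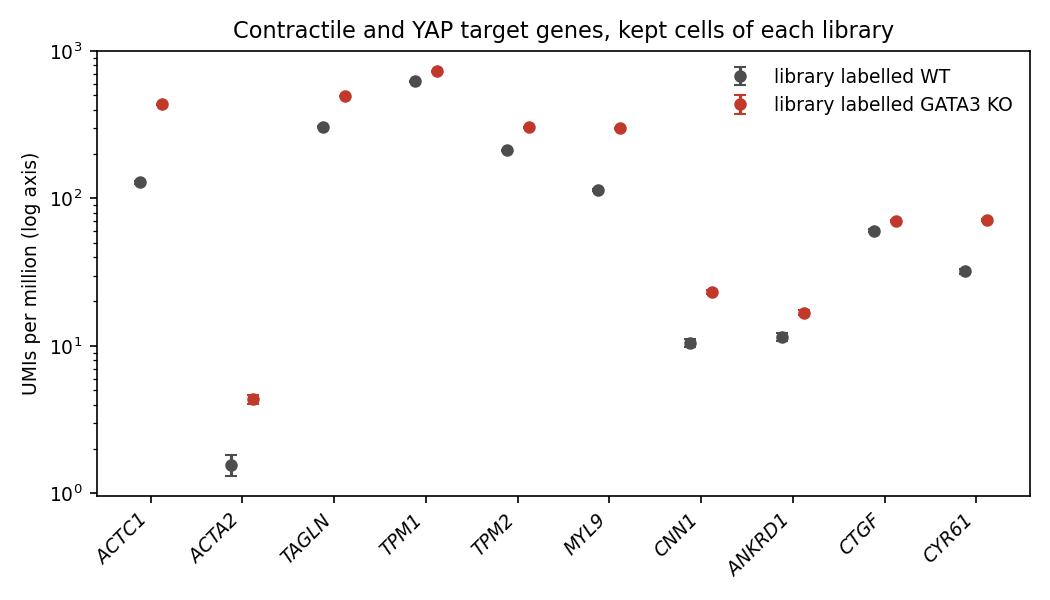
Level of each member (CPM, log axis) over all kept cells of the library labelled WT (grey) and the library labelled GATA3 KO (red), with 95% Poisson intervals that are mostly smaller than the points. Every red point lies above its grey one, with the widest gap at ACTC1 (128.2 and 434.6 CPM) and narrow ones at CTGF and TPM1.

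Among the actins, ACTC1 (ENSG00000159251, chromosome 15, 34790107 to 34795589 in GRCh38, minus strand, protein-coding) had 12772 UMIs in WT, or 128.2 CPM (interval 126.0 to 130.5), and 76171 UMIs in GATA3 KO, or 434.6 CPM (interval 431.5 to 437.7). This gave a log2 ratio of 1.75 (interval 1.73 to 1.78), a 3.37-fold difference, and 12 of the 9992 genes had a higher ratio. ACTA2 (ENSG00000107796, chromosome 10, 88935074 to 88991339, minus strand) was nearly absent from both libraries, with 155 UMIs in WT (1.56 CPM) and 761 in GATA3 KO (4.34 CPM). Its log2 ratio was 1.06 (interval 0.90 to 1.22), but it is left out of the counts past 2-fold because it did not reach 5 CPM. ACTA2 overlaps FAS, STAMBPL1 and ACTA2-AS1 on the other strand, and FAS had a log2 ratio of 0.94, at 1.15 CPM in WT and 3.14 CPM in GATA3 KO. Neither actin shared any run of 50 bases with ACTA1, ACTG2, ACTB or ACTG1, or with the other, within the last 500 bases of their annotated transcripts, which is the end that these libraries sample.

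The proximal promoter of ACTC1 holds a CArG box, shown here because ACTC1 leads the list and SRF acts on many contractile genes. RefSeq promoters (GRCh38.p14, from 250 bases before to 50 after the start) were found for 7 of the 10 members. No such promoter was found for TAGLN, MYL9 or CYR61, which were not searched. The CArG box was searched on both strands and was present in 1 of the 7, ACTC1, and in 1.29% of 27305 promoters of this length. The match begins 109 bases before the start of ACTC1, and the window printed is chr15:34795639-34795668 on the minus strand, with the box in capitals.
ACTC1 CArG box: gcgaaggggaCCAAATAAGGcaaggtggca
A match is a description of the letters and not evidence that SRF was bound in these cells. The search says nothing of sites outside these windows or of sites with other letters.

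Of the myosin and filament-binding members, MYL9 (ENSG00000101335, chromosome 20, 36541497 to 36551447, plus strand) showed the widest difference. From 113.6 CPM in WT (interval 111.5 to 115.7), MYL9 reached 298.3 CPM in GATA3 KO (interval 295.7 to 300.9), which is a log2 ratio of 1.39. The 24 genes within 1 Mb of MYL9 that reached 5 CPM had a median log2 ratio of 0.32, against 0.08 for all genes tested. Their highest value was 0.89 (ERGIC3), so MYL9 stood above all of its neighbours. Whether part of the MYL9 difference is shared with its region was not tested. For ACTC1 the 9 such neighbours had a median of -0.09 and a highest value of 0.58. CNN1 (ENSG00000130176, chromosome 19, 11538767 to 11550323, plus strand) had 1042 UMIs (10.5 CPM) in WT and 4051 UMIs (23.1 CPM) in GATA3 KO, which is a log2 ratio of 1.07 (interval 0.98 to 1.16). Its 30 neighbours had a median of 0.44, also above that of all genes, and 2 of them were at least 2-fold higher, against 2.42% of all genes tested.

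The other contractile members differed by less. TAGLN (ENSG00000149591, chromosome 11, 117199370 to 117207464, plus strand) had a level of 306.9 CPM in WT and 494.5 CPM in GATA3 KO, which is a log2 ratio of 0.69 (interval 0.67 to 0.71). TPM2 (ENSG00000198467, chromosome 9, 35681992 to 35690056, minus strand) had levels of 211.3 and 303.1 CPM, with a log2 ratio of 0.52. TPM1 (ENSG00000140416, chromosome 15, 63042620 to 63071915, plus strand) had levels of 620.2 and 726.5 CPM, with a log2 ratio of 0.23. Both tropomyosins and TAGLN thus differed in the direction of ACTC1 without reaching 2-fold.

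The YAP targets differed among themselves. CYR61 (ENSG00000142871, chromosome 1, 85580761 to 85584589, plus strand) had 3192 UMIs in WT (32.1 CPM) against 12479 in GATA3 KO (71.2 CPM), and a log2 ratio of 1.13 (interval 1.07 to 1.18). CTGF (ENSG00000118523, chromosome 6, 131948176 to 131951372, minus strand) had 6029 UMIs in WT (60.5 CPM) against 12316 in GATA3 KO (70.3 CPM), and a log2 ratio of 0.21 (interval 0.17 to 0.26). ANKRD1 (ENSG00000148677, chromosome 10, 90912096 to 90921087, minus strand) had 1143 UMIs in WT (11.5 CPM) against 2941 in GATA3 KO (16.8 CPM), and a log2 ratio of 0.51 (interval 0.42 to 0.60). The directions of ANKRD1 and CTGF depend on the processing: without the upper limit on detected genes the ratio of ANKRD1 was -0.29, and that of CTGF was -0.22 when CPM were computed per cell and then averaged. Without that limit CNN1 (0.85) and CYR61 (0.88) also fell short of 2-fold, while ACTC1 (1.30) and MYL9 (1.17) did not. CYR61 was higher under each setting tried.

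The TEAD motif is shown for CTGF and ANKRD1, since both genes carry it in the proximal promoter and both differed by less than 2-fold between the libraries. GGAATG was searched on both strands of the same windows and was found in 2 of the 7 members, against 14.0% of all promoters. CYR61 was not searched, as no promoter was found for it. CTGF has 3 matches, the latter pair overlapping in the window printed, and ANKRD1 has 2, with the motif in capitals on the minus strand of chromosomes 6 and 10.
CTGF, 169 bases before the start, chr6:131951524-131951553: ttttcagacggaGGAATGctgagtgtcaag
CTGF, 104 bases before the start, chr6:131951459-131951488: ggaaggtggggaGGAATGcgaggaatgtcc
CTGF, 95 bases before the start, chr6:131951450-131951479: ggaggaatgcgaGGAATGtccctgtttgtg
ANKRD1, 220 bases before the start, chr10:90921290-90921319: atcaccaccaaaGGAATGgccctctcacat
ANKRD1, 128 bases before the start, chr10:90921198-90921227: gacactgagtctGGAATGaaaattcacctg

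To see whether the higher ACTC1 level came from a few cells or from many, cells were thinned at random to 10000 UMIs each. This left out 346 shallower cells labelled WT and 412 labelled GATA3 KO, so that 2173 and 4038 remained. ACTC1 was detected in 33.6% (731 of 2173) of cells labelled WT and 55.4% (2237 of 4038) of cells labelled GATA3 KO, and without thinning in 66.6% and 82.9%. At least 10 ACTC1 UMIs were present in 2.67% (2.03 to 3.44) and 9.71% (8.81 to 10.7) of cells, and at least 20 in 1.43% (0.97 to 2.02) and 5.62% (4.93 to 6.38). Cells of every ACTC1 level counted were therefore more frequent in the library labelled GATA3 KO, and the cells of high level more so than the cells with any transcript.

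ACTC1 was unevenly spread in both libraries. The tenth of cells with the most ACTC1 held 79.1% of its UMIs labelled WT and 74.5% labelled GATA3 KO. The variance of ACTC1 counts over their mean was 24.1 and 33.4. For MYL9 the same measures were 40.7% and 34.0%, and 2.28 and 3.25. MYL9 was detected in 58.0% of cells labelled WT and 84.8% of cells labelled GATA3 KO, with a median of 1 and 2 UMIs, so its difference reached the middle of the population. TPM1 and TPM2 were near universal, detected in 98.7% and 99.2%, and in 86.1% and 93.5% of cells.

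**Figure D2:**
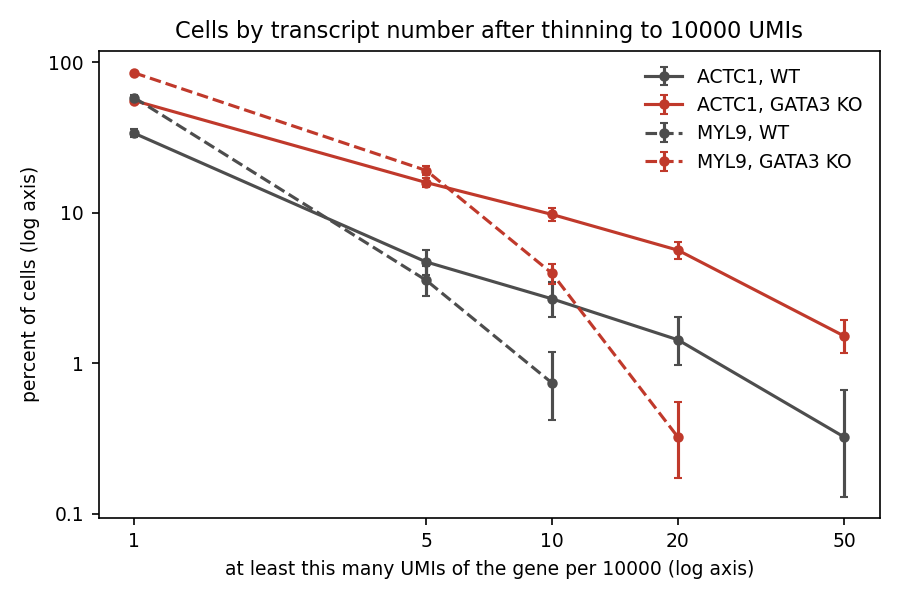
Percent of cells (log axis) that held at least 1, 5, 10, 20 or 50 UMIs of ACTC1 (solid lines) or MYL9 (dashed lines) after thinning to 10000 UMIs, in the libraries labelled WT (grey) and GATA3 KO (red), with Clopper-Pearson 95% intervals. The ACTC1 lines slope gently, from 33.6% to 0.32% and from 55.4% to 1.51%, while the MYL9 lines drop steeply, and points with 0 cells are left out.

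Genes of low level were detected in few thinned cells, a share that depends on depth. ANKRD1 was found in 3.87% of thinned cells labelled WT and 5.55% labelled GATA3 KO. Its highest cells held 17 and 16 UMIs. CNN1 was found in 9.20% and 16.8%, and ACTA2 in 1.52% and 4.14%, with at most 3 UMIs in a cell for ACTA2. CYR61 went from 22.3% to 38.1% and CTGF from 29.0% to 35.3%. Unthinned, ANKRD1 was found in 6.87% and 8.99%, CNN1 in 28.5% and 43.5%, ACTA2 in 4.84% and 12.7%, CYR61 in 47.0% and 68.1%, and CTGF in 53.0% and 61.2% of cells.

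Cells were then set into groups by lineage markers, to see whether the ACTC1 difference was shared by other contractile genes in each. The groups are ranges of marker UMIs in thinned cells and not cell types. At least 2 UMIs of MIXL1, EOMES and TBXT together, which mark the primitive streak, were found in 696 cells labelled WT (32.0%) and 65 labelled GATA3 KO (1.61%). At least 2 UMIs of HAND1 and ISL1, known from extraembryonic and lateral mesoderm cells, were found in 61 (2.81%) and 116 (2.87%), and 7 and 2 cells passed both cut-offs. Of the rest, 21 and 244 cells held at least 2 UMIs of TFAP2A, an early factor of amnion, trophoblast and surface ectoderm. At least 3 UMIs of SOX2 were held with NANOG by 239 and 947 cells and without NANOG by 257 and 1614. The last 892 and 1050 cells had none of these and are called marker-low. Many cells lay at a cut-off: of 703 cells labelled WT past the streak cut-off, 155 held exactly 2 UMIs, and 290 more held 1. For HAND1 with ISL1, 24 of 68 cells labelled WT and 52 of 118 labelled GATA3 KO held exactly 2, and 73 and 109 more held 1.

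In both libraries ACTC1 was lowest in SOX2 cells and highest in HAND1/ISL1 cells, when the cells past both the streak and HAND1/ISL1 cut-offs are left out. Those 7 cells labelled WT and 2 labelled GATA3 KO stood at 196.9 and 4233 CPM. In the library labelled WT it was at 30.1 CPM in SOX2 cells without NANOG, 33.8 CPM in SOX2 cells with NANOG, 56.2 CPM in streak-marker cells, 118.5 CPM in marker-low cells, 854.6 CPM in TFAP2A cells and 1721 CPM in HAND1/ISL1 cells. In the library labelled GATA3 KO the same groups stood at 99.8, 114.8, 259.5, 609.5, 1733 and 2993 CPM. The order of these listed groups was thus the same in both. The intervals of the SOX2 groups overlapped in the library labelled WT and those of the other neighbours did not, but these intervals cover counting error only.

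**Figure D3:**
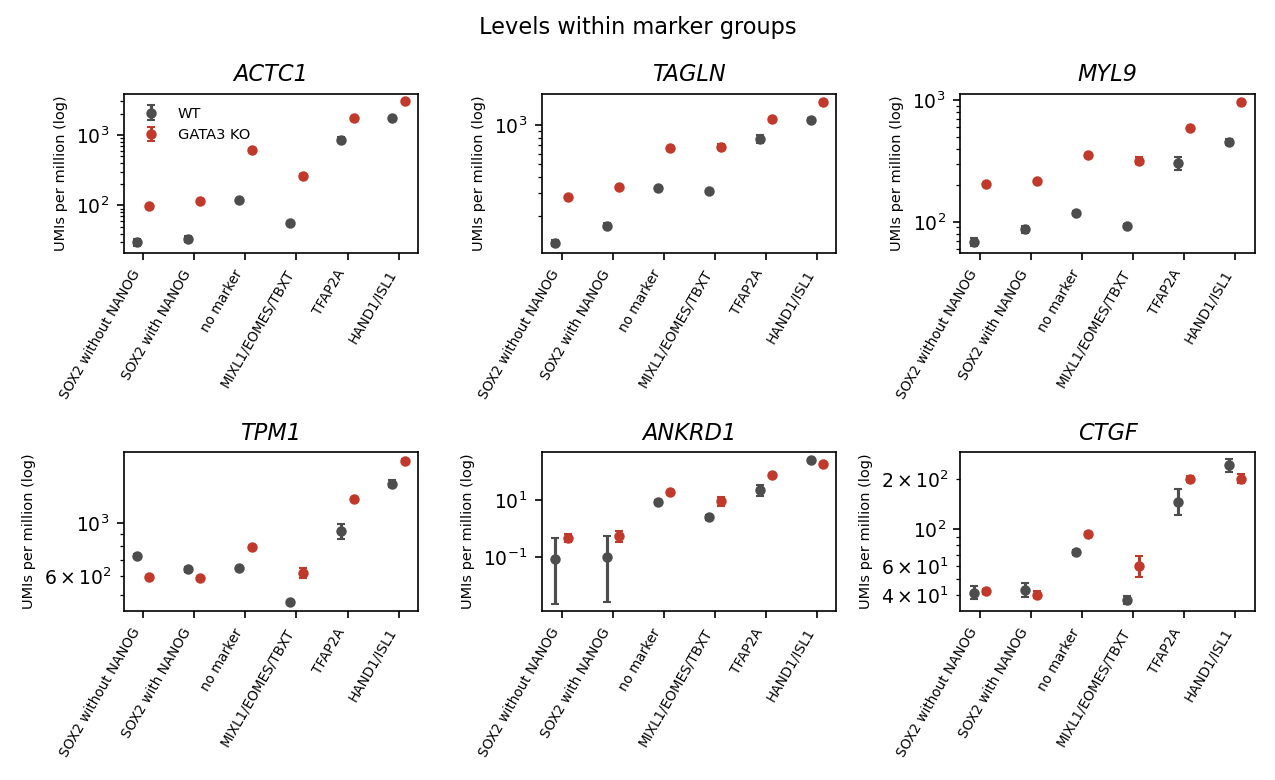
Level of 6 members (CPM, log axes that differ between panels) in 6 marker groups of the libraries labelled WT (grey) and GATA3 KO (red), with 95% Poisson intervals. ACTC1, TAGLN and MYL9 are higher in red in each group, TPM1 is lower in red in the SOX2 groups, and ANKRD1 and CTGF are lower in red in HAND1/ISL1 cells.

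ACTC1 was higher in the library labelled GATA3 KO within each of the 5 groups that held at least 50 cells in both libraries. The log2 ratio was 1.70 (1.55 to 1.85) in SOX2 cells without NANOG, 1.74 (1.58 to 1.90) in SOX2 cells with NANOG, 2.19 (2.07 to 2.30) in streak-marker cells, 2.35 (2.31 to 2.40) in marker-low cells and 0.80 (0.75 to 0.85) in HAND1/ISL1 cells. It was smallest in HAND1/ISL1 cells, where the level was highest. These ratios depend on how the groups were drawn: over other cut-offs, another random thinning and no gene limit they lay between 1.44 and 1.73, 1.64 and 1.89, 1.67 and 2.91, 1.98 and 2.50, and 0.45 and 1.20, in the same order, so that ACTC1 in HAND1/ISL1 cells passed 2-fold under 1 of them. In TFAP2A cells it was 1.02, but this rests on 21 cells labelled WT and moved from 0.45 to 2.68 with other cut-offs or another random thinning. Of the ACTC1 UMIs in cells of at least 10000 UMIs, HAND1/ISL1 cells held 31.7% in WT and 21.6% in GATA3 KO, TFAP2A cells 6.34% and 24.6%, and marker-low cells 40.1% and 36.5%.

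The step from SOX2 cells without NANOG to HAND1/ISL1 cells was wider for ACTC1 than for TAGLN, MYL9, CTGF or the tropomyosins. ACTC1 was 55.3-fold higher in HAND1/ISL1 cells in WT and 29.7-fold higher in GATA3 KO. TAGLN was 8.78-fold and 5.34-fold higher, MYL9 6.57-fold and 4.67-fold, and CTGF 5.71-fold and 4.67-fold. TPM1 was 2.01-fold and 3.06-fold higher, TPM2 1.96-fold and 1.84-fold, and CYR61 5.90-fold and 2.81-fold. ANKRD1 had 1 UMI in the SOX2 cells and 580 in the HAND1/ISL1 cells of WT, and 33 and 1052 in those of GATA3 KO. ACTA2 had 9 and 24 UMIs in WT, and 327 and 29 in GATA3 KO, where its ratio between these groups had an interval from -0.32 to 0.64 on the log2 scale.

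ACTC1 was also higher in GATA3 KO when the makeup of the libraries was held equal. Over cells of at least 10000 UMIs the level was 120.9 CPM labelled WT and 427.0 CPM labelled GATA3 KO, a log2 ratio of 1.81. With each group weighted by the mean of its shares of UMIs in the libraries, the levels were 138.6 and 440.9 CPM and the log2 ratio was 1.66 (1.63 to 1.70). WT levels combined with the group shares of the library labelled GATA3 KO gave 156.2 CPM, a log2 ratio of 0.37. For TAGLN the equal-weight ratio was 0.98 against 0.70 over the same cells, and for MYL9 it was 1.49 against 1.42.

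MYL9 and TAGLN were higher, as ACTC1 was, in each of these 5 groups. MYL9 had log2 ratios from 1.08 in HAND1/ISL1 cells to 1.77 in streak-marker cells and was at least 2-fold higher in 5 of 5 groups, or 4 of 5 without the gene limit, where HAND1/ISL1 cells gave 0.94. TAGLN had ratios from 0.46 in HAND1/ISL1 cells to 1.17 in SOX2 cells without NANOG, where it was at 124.8 and 282.4 CPM, and was at least 2-fold higher in 3 of 5. CNN1 had ratios from 0.63 to 1.46 and TPM2 from 0.36 to 0.63, each with intervals above 0 in all 5. CYR61 had ratios of 1.05 to 1.66 in 4 groups and 0.02 (-0.17 to 0.21) in HAND1/ISL1 cells. Without the gene limit CYR61 had 0.33 (0.21 to 0.45) in HAND1/ISL1 cells and 0.81 in SOX2 cells without NANOG, short of 2-fold.

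TPM1, ANKRD1 and CTGF did not share the ACTC1 pattern in each group. In SOX2 cells without NANOG, TPM1 was at 728.8 CPM labelled WT and 594.9 CPM in GATA3 KO, with a log2 ratio of -0.29 (-0.33 to -0.26). In streak-marker cells its ratio was 0.41 (0.34 to 0.48). In HAND1/ISL1 cells ANKRD1 was at 265.6 and 196.8 CPM, a log2 ratio of -0.43 (-0.58 to -0.28), and CTGF at 241.8 and 201.4 CPM, a ratio of -0.26 (-0.41 to -0.11). Among the groups of at least 50 cells in both libraries, these are the cells in which ACTC1 stood highest. ACTA2 was at 11.0 and 5.42 CPM there, from 24 and 29 UMIs.

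**Figure D4:**
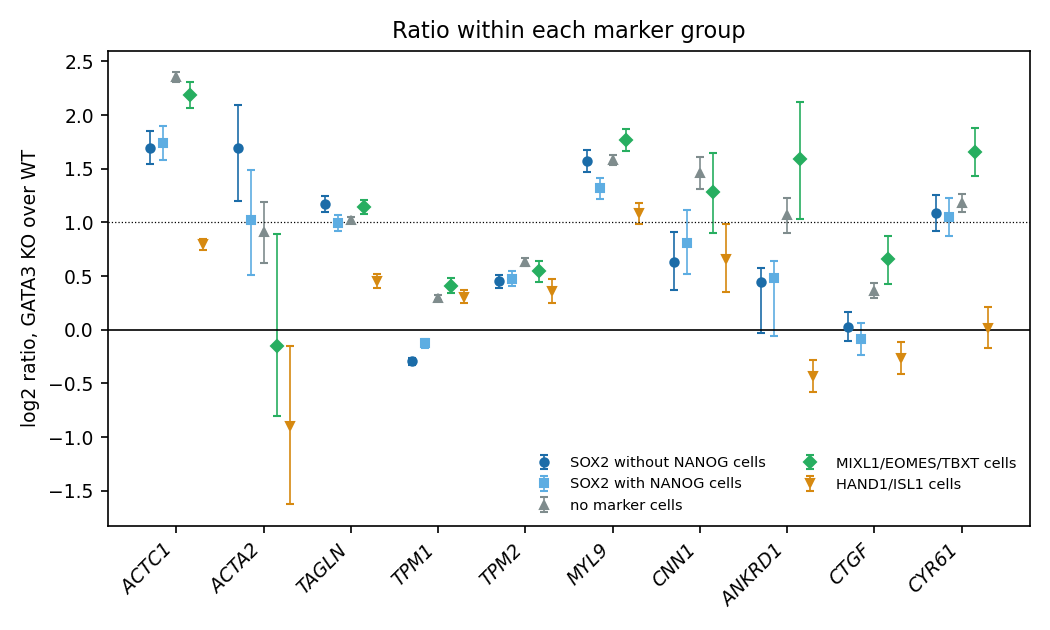
Log2 ratio of GATA3 KO over WT for each member in the 5 marker groups with at least 50 cells in both libraries, with 95% counting intervals; the solid line marks no difference and the dotted line a 2-fold difference. All ACTC1, TAGLN, TPM2, MYL9 and CNN1 points lie above 0, whereas HAND1/ISL1 cells (orange) give the lowest point for ACTC1, ACTA2, TAGLN, TPM2, MYL9, ANKRD1, CTGF and CYR61.

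Counted by group, 4 of 8 members tested were at least 2-fold higher in SOX2 cells without NANOG, where 1.84% of all genes were. In SOX2 cells with NANOG 3 of 8 were, against 1.65% of genes, and in marker-low cells 6 of 9, against 2.36%. Streak-marker cells gave 6 of 9 against 3.27%, and HAND1/ISL1 cells 1 of 10 (MYL9) against 5.90%. The 6 in streak-marker cells include ANKRD1, which reached 5 CPM there only in GATA3 KO and was detected in 4 of 65 thinned cells. In each of the 5 groups 0 members tested were at least 2-fold lower, where the shares of all genes were 1.03%, 1.55%, 1.54%, 2.87% and 3.27%. Without the gene limit the counts at least 2-fold higher were 3 of 8 in SOX2 cells without NANOG, 4 of 8 in SOX2 cells with NANOG, 4 of 9 in marker-low cells (TAGLN at 0.89 and ANKRD1 at 0.15 no longer among them), 6 of 9 in streak-marker cells and 0 of 10 in HAND1/ISL1 cells. The shares of all genes were then 1.11%, 1.15%, 1.76%, 2.16% and 2.34%. Median depth was similar between libraries in each group but HAND1/ISL1 cells, at 35918 UMIs labelled WT and 46366.5 labelled GATA3 KO. Median mitochondrial shares lay between 9.92% and 11.8% in the 5 groups.

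ACTC1 was also detected in SOX2 cells. In SOX2 cells without NANOG it was detected in 21.0% (54 of 257) of thinned cells labelled WT and 44.5% (718 of 1614) labelled GATA3 KO, and at least 10 UMIs were held by 0 of 257 and 1.24% of 1614. ANKRD1 was detected there in 0.39% and 0.68% of cells, the lowest shares of the 10 members. The level of free RNA was not measured, and its part in the ACTC1 counts of these cells was not tested. The ratio of ACTC1 to ANKRD1 UMIs was 6.48 in HAND1/ISL1 cells and 13.0 in marker-low cells labelled WT, against 353 ACTC1 UMIs to 1 ANKRD1 UMI in SOX2 cells without NANOG. In the library labelled GATA3 KO the values were 15.2, 30.3 and 210.1, with 6934 ACTC1 and 33 ANKRD1 UMIs in the SOX2 cells.

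Across cells the other members were then set against ACTC1. In cells with 0, 1 to 4, 5 to 19 and at least 20 ACTC1 UMIs per 10000, TAGLN was at 219.8, 346.2, 1030.3 and 2126 CPM labelled WT and at 239.7, 393.3, 1017 and 2069 CPM labelled GATA3 KO. These classes mix the marker groups. Within SOX2 cells without NANOG, TAGLN was at 123.8 CPM in WT against 206.0 CPM in GATA3 KO in cells with 0 ACTC1 UMIs, and at 128.8 against 315.1 CPM in those with 1 to 4, so that the libraries were close in TAGLN over all cells of a class and apart within these SOX2 cells. MYL9 went from 85.5 to 653.3 CPM labelled WT and from 187.1 to 997.4 CPM labelled GATA3 KO, and was higher in the latter in each of the 4 classes. ANKRD1 went the other way, at 1.71, 9.73, 89.0 and 339.4 CPM labelled WT and 0.72, 1.81, 38.5 and 189.5 CPM labelled GATA3 KO. The classes held 1442, 629, 71 and 31 cells labelled WT and 1801, 1598, 412 and 227 cells labelled GATA3 KO. They do not equalise ACTC1 fully, which was at 23.5 and 40.4 CPM in the class with 0 thinned UMIs.

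**Figure D5:**
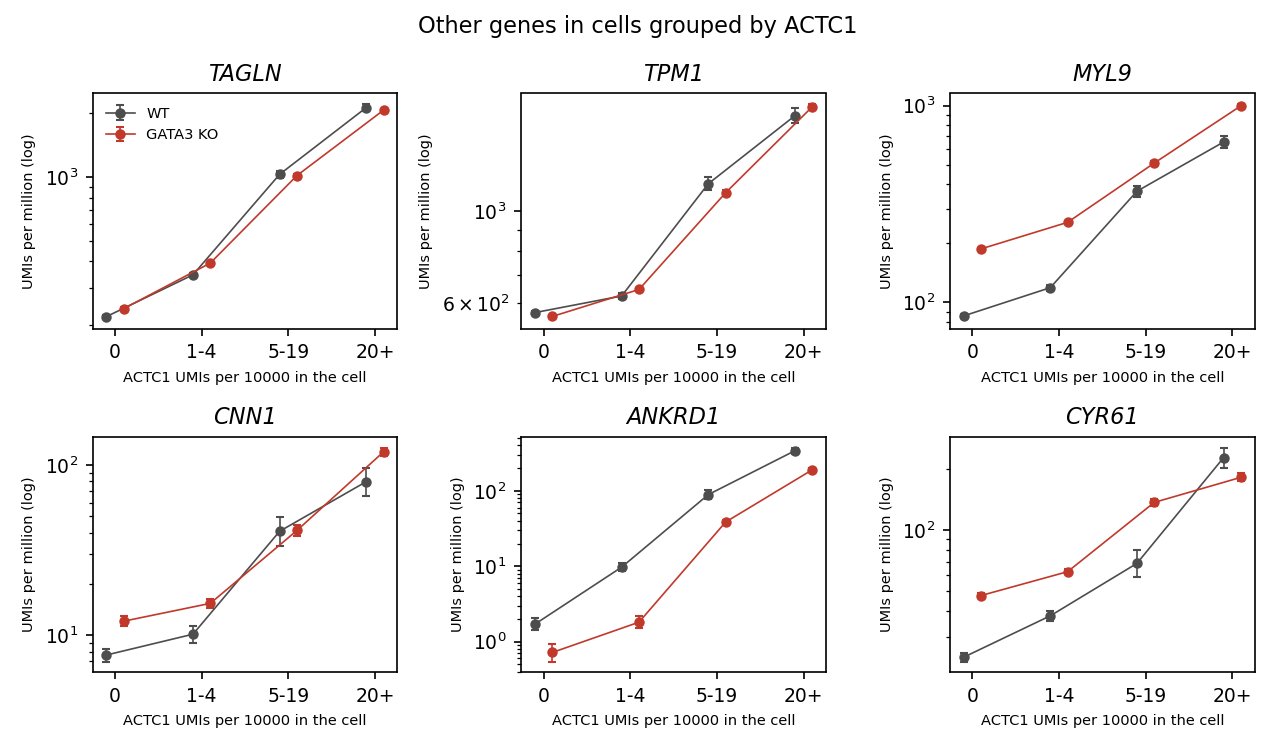
Level of 6 members (CPM, log axes that differ between panels) in cells classed by their ACTC1 UMIs after thinning to 10000, in the libraries labelled WT (grey) and GATA3 KO (red), with 95% Poisson intervals. All 6 are higher in the upper ACTC1 classes of both libraries, the TAGLN lines over all cells nearly coincide, the MYL9 line is higher in red and the ANKRD1 line lower in red throughout.

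Likeness to ACTC1 over cells was ranked by the lower of both libraries' Pearson r on log2 of 1 plus thinned UMIs. Only the 5528 other genes of at least 20 CPM in either library were ranked. The first were CLDN10 (0.50 labelled WT, 0.67 labelled GATA3 KO), TAGLN (0.46 and 0.61), NPPB (0.57 and 0.46), FN1 (0.45 and 0.59) and POSTN (0.45 and 0.55). ANKRD1 and ACTA2 did not reach 20 CPM and were not ranked. The r of ANKRD1 was 0.48 and 0.49, and its lower value was above that of TAGLN. These are correlations across 2173 and 4038 cells that share a library and a mixture of states, and they are given as a description. CLDN10 encodes a claudin, NPPB a natriuretic peptide of heart, FN1 fibronectin and POSTN the matrix protein periostin. MYL9 ranked 13 and TPM1 33. In SOX2 cells without NANOG alone, r of TAGLN with ACTC1 was 0.03 labelled WT and 0.37 labelled GATA3 KO. NPPB was at 22.2 and 12.9 CPM, and so was lower in the library labelled GATA3 KO, while POSTN was at 14.2 and 25.3 CPM.

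Other genes of the same machinery differed less than ACTC1 and MYL9. Of 28 actomyosin genes outside the list, 24 reached 5 CPM, 20 of them were higher and 4 lower, and the median log2 ratio was 0.29, where 56.4% of all genes were higher and their median was 0.08. The 2 at least 2-fold higher, against 2.42% of all genes, were CNN2, another calponin, at 140.8 and 296.7 CPM (log2 ratio 1.07), and ACTG2, the enteric smooth muscle actin, at 3.16 and 7.57 CPM (1.04). ACTG2 entered the genes tested only through its level in GATA3 KO. SRF itself was at 11.9 and 14.0 CPM (0.22) and its partner ELK1 at 14.6 and 14.5 CPM. Of 5 such SRF factors tested, 2 were higher and 3 lower, with a median of -0.00. Named after their values were seen, MKL1 was at 3.19 and 5.79 CPM (0.70) and ELK4 at 11.5 and 7.64 CPM (-0.53). MKL1 reached 5 CPM only in GATA3 KO.

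Genes of the YAP pathway went both ways. Of 17 factors tested, 7 were higher and 10 lower, where 56.4% of all genes were higher by any amount. Their median was -0.09 and 0 passed 2-fold, where 2.42% of all genes were that much higher and 2.09% lower. The list holds factors that act with YAP and factors that restrain it, so these counts give no direction for the pathway. TEAD2 was at 51.6 and 82.3 CPM (0.66) and MOB1A, an activator of the LATS kinases that restrain YAP, at 77.2 and 52.6 CPM (-0.54). YAP1, named after its value was seen, was at 51.3 and 35.3 CPM (-0.53). Of 14 other YAP targets tested, 8 were higher and 6 lower, with a median of 0.03. F3, which encodes tissue factor, was the 1 target past 2-fold, and it was lower, at 11.3 and 4.04 CPM (-1.29), against 2.09% of all genes. F3 reached 5 CPM only in WT. The highest ratio of these targets was 0.87 for NUAK2, named after its value was seen, at 3.16 and 6.61 CPM. NUAK2 reached 5 CPM only in GATA3 KO. LATS2 is counted among both the factors and the targets.

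Over the whole libraries, defining markers of heart and of mature smooth muscle were low, while more general mesenchyme genes were not. Levels of these lists within the cells of high ACTC1 were not computed, so the values do not describe those cells alone. Of 12 cardiomyocyte genes, 8 were below 1 CPM in both libraries, including MYH6, MYH7, MYL2, TNNI1 and NKX2-5. Their summed level was 22.1 CPM labelled WT and 22.7 CPM labelled GATA3 KO, led by TNNC1 (9.10 and 6.18 CPM) and TNNT2 (5.87 and 7.76 CPM), and the 3 genes tested had a median log2 ratio of 0.35. Of 15 smooth muscle and mesenchyme genes, 6 were below 1 CPM in both (MYH11, LMOD1, MYOCD, COL3A1, DCN and LUM). The summed level of that list was 287.5 and 419.5 CPM, most of it VIM at 173.9 and 289.3 CPM, with COL1A2 at 66.0 and 53.0 CPM. Of the 5 genes of the list that reached 5 CPM, 4 were higher in GATA3 KO (VIM, COL1A1, POSTN and SMTN) and 1 lower (COL1A2), with a median log2 ratio of 0.73 and 0 past 2-fold. COL1A1, named after its value was seen, was at 15.2 and 29.4 CPM. The part of such cells in the ACTC1 difference was not tested. POSTN, MYH11, LMOD1, DES and SMTN of this list are also counted above.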

How the data were processed

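Single-cell RNA-seq libraries (10x Genomics 3′ v3) had been made from 1 WT and 1 GATA3 KO culture of H1 hESCs. The authors aligned reads with Cell Ranger 3.0.2 to the 10x GRCh38 reference and deposited raw UMI counts per gene and called cell, with no limit on genes or mitochondrial share applied. Whether the counts used strand is not given in the sources used here. Samples were grouped by title. The libraries shared 8 of their cell barcodes.

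Cells above 7500 genes or 25% mitochondrial counts were removed, after the methods of the study. Doublets were not called; leaving out the deepest cells was an alternative. Counts were summed over kept cells and divided by the total. CPM carry exact Poisson intervals, shares Clopper-Pearson intervals, and ratios (pseudocount 1 CPM) the exact binomial interval of the pair of counts, and the equal-share ratio a normal approximation, all for counting error only. With 1 library per group no test was made. The ratio script was tested on simulated counts. Genes that reached 5 CPM in either library entered the background. Marker groups used cells thinned to 10000 UMIs (seed 42).

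Positions came from GENCODE 44 on GRCh38 by identifier (33113 of 33538 genes), and promoters from RefSeq. Python 3.11.15, scipy 1.17.1 and edgeR 4.0.16 (TMM factors only) were used. The members, lists and groups were chosen with earlier results of these data known. Beyond the members, named genes were those of each list past 2-fold, or else its most abundant pair, and the 5 genes most like ACTC1. Genes named after their values were seen are marked as such.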

Additional observations from a re-analysis of the deposited data

Results flagged for a closer look

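For 3 members, among groups in which they reached 5 CPM, the groups of cells went opposite ways between the libraries, with counting intervals on both sides of 0. The difference between groups was not tested, since each group comes from 1 library per label. TPM1 had a log2 ratio of 0.41 in streak-marker cells and -0.29 in SOX2 cells without NANOG, a gap of 0.70. ANKRD1 had a ratio of 1.59 (1.03 to 2.12) in streak-marker cells, where it was at 2.54 and 9.66 CPM, and -0.43 in HAND1/ISL1 cells, a gap of 2.02. In streak-marker cells ANKRD1 reached 5 CPM only in GATA3 KO, from 83 and 30 UMIs. It was detected there in 10 of 696 thinned cells labelled WT and 4 of 65 labelled GATA3 KO. The interval treats UMIs of the same cell as independent counts. CTGF had a ratio of 0.66 in streak-marker cells and -0.26 in HAND1/ISL1 cells, a gap of 0.92. ACTA2 did so too where lower levels are let in, with a ratio of 1.69 (1.20 to 2.09) in SOX2 cells without NANOG, from 9 and 327 UMIs, and -0.90 (-1.63 to -0.15) in HAND1/ISL1 cells, a gap of 2.59. The streak-marker group held 65 cells labelled GATA3 KO. With the groups drawn without the upper limit on detected genes, the same pairs were 0.48 and -0.21 for TPM1, 1.37 and -0.33 for ANKRD1, 0.61 and -0.21 for CTGF, and 1.39 and -0.34 (-0.82 to 0.14) for ACTA2.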

How the results depend on the processing

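Without the upper limit of 7500 genes the log2 ratio of ACTC1 was 1.30, the median of the 10 members 0.70 and the number at least 2-fold higher 2 in place of 4 (ACTC1 and MYL9 at 1.17, with CNN1 at 0.85 and CYR61 at 0.88). Over all deposited cells these were 1.29, 0.69 and 2. The ACTC1 ratio was 1.80 with at least 2000 genes per cell, 1.52 without the 5% deepest cells, 1.30 in the mean of per-cell CPM, 1.72 without mitochondrial and ribosomal genes in the totals and 1.72 with a pseudocount of 5 CPM. Without the HAND1/ISL1 and TFAP2A groups, an alternative added after seeing the data, it was 1.60. The median of the 10 was 0.75 without the deepest cells, 0.70 in the mean of per-cell CPM, 0.60 with a pseudocount of 5 CPM and 0.75 without those groups. At equal group shares the ACTC1 ratio was 1.62 with lineage cut-offs of 1 UMI, 1.91 with 3 UMIs, 1.94 with cut-offs as rates, and 1.47 in groups drawn without the gene limit, also added afterwards. In HAND1/ISL1 cells it lay between 0.45 and 1.20. The cause of these shifts was not tested. ACTC1, ACTA2, TAGLN, TPM1, TPM2, MYL9, CNN1 and CYR61 were higher in GATA3 KO under each of 11 settings, ANKRD1 under 9 and CTGF under 10. No paired analysis was possible because each label has 1 library, and for the same reason no replicate could be left out. The share of all genes at least 2-fold higher was 2.41% with at least 20 CPM and 2.06% with at least 1 CPM. Shares of cells with ACTC1 depend on depth, at 24.3% and 42.5% at 5000 UMIs and 48.4% and 71.1% at 20000.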

Other observations

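Cells above 7500 detected genes, which the limits remove, had higher levels of several members in WT and less so in GATA3 KO. They made up 28.7% of cells labelled WT and 22.1% of cells labelled GATA3 KO that passed the mitochondrial limit, and held 64.7% and 39.6% of the ACTC1 UMIs, where they held 49.6% and 37.2% of all UMIs. Their ACTC1 level was 238.5 and 482.5 CPM. In such cells ANKRD1 had 29.8 CPM in WT (interval 28.7 to 30.9) against 16.5 CPM in GATA3 KO (interval 15.7 to 17.3). In GATA3 KO the levels of ANKRD1, CTGF (68.1 CPM), CYR61 (64.2 CPM) and ACTA2 (3.94 CPM) above the limit were no higher than in the kept cells. Of 114 HAND1/ISL1 cells labelled WT drawn without the limit, 53 lay above it, against 41 of 152 labelled GATA3 KO.

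Genes of the response to TGF-beta, another known inducer of ACTA2, TAGLN and CTGF, were mostly lower in the library labelled GATA3 KO. Of 6 tested, 5 were lower and 1 higher, where 56.4% of all genes were higher by any amount. The 6 had a median log2 ratio of -0.57 and 0 passed 2-fold, where 2.42% of all genes were that much higher and 2.09% lower. SKIL, a feedback inhibitor, was at 149.2 and 98.1 CPM, and TGFB1 at 31.2 and 17.8 CPM. Immediate-early and heat shock genes, which respond to dissociation as CYR61 can, went both ways. Of 10 tested, 7 were higher, where 56.4% of all genes were. The 10 had a median of 0.12 and 0 passed 2-fold, against the shares of all genes just given. The most abundant pair was IER2, at 98.1 and 99.4 CPM, and IER3, at 85.9 and 56.4 CPM. Named after their values were seen, HSPA1B had the lowest ratio of those tested (-0.60) and JUN the highest (0.77, at 8.81 and 15.7 CPM).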
